A study of Mus musculus with 32 samples.

Results

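The pericentral Wnt-driven zonation genes described here are Glul, Cyp2e1, Cyp1a2, Oat, Rhbg, Slc1a2, Axin2, Lgr5, Tbx3 and Rnf43. They were chosen by name, as known targets of Wnt signalling in the hepatocytes around the central vein, and make up 10 of the 34947 genes and 15 of the 55681 probes on the arrays. Of these genes, 9 were bright enough to be tested among 21309 genes, and Axin2 was not. The study asked how an Fc-fused GLP-1 receptor agonist acts on fatty liver and on recovery after partial hepatectomy (PH).

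Liver RNA of male C57/BL6 mice was hybridised on 32 arrays, 4 in each of 8 groups. Mice were 8 weeks old when the diets began. C mice ate chow, and MCD mice ate a methionine and choline deficient diet that produces a fatty, inflamed liver. C+Fc-GLP-1 mice ate chow and received the drug. M+Fc-GLP-1 mice received it on the MCD diet, and the groups without drug received vehicle. At PH the diets had lasted 3 weeks and the drug 2 weeks. PH removed 70% of the liver, and the groups after PH were sampled 2 weeks later with diet and treatment continued. The agent is called Fc-GLP-1 here, after the group names. Part of the labels describes it otherwise, as an agent that acts on the glucagon receptor too, with a dose of 4.4 mg/kg/day every 2 days. The source label of C+Fc-GLP-1 mice after PH names Fc-GLP-1 before PH and a dual agonist after it. That of M+Fc-GLP-1 mice after PH says that the same treatment continued. By these labels the treated groups after PH may differ in their agent. Groups after PH hold only mice that survived surgery. Array titles share replicate numbers before and after PH, but no label says whether they mark the same mouse. The arrays were treated as unpaired.

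In the liver lobule, blood flows from the portal tract to the central vein, and hepatocytes divide their work along this path. Endothelial cells of the central vein secrete Wnt2, Wnt9b and R-spondin 3, which stabilise β-catenin in the neighbouring hepatocytes. These cells then make glutamine from ammonia and express drug-metabolising cytochromes P450. Hepatocytes nearer the portal tract make urea and glucose instead. Wnt signalling also turns on its own brakes, such as Axin2 and Rnf43.

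All values are log2 probe signals relative to the 75th percentile of the same array, so they have no absolute unit and the level of one gene cannot be set against that of another. A gene was called changed when the adjusted p of the linear model over all groups was under 0.05. Where nothing else is said, changes are log2 differences with their standard error (SE). The p-values measure the spread between arrays. RNA came from whole liver, so fewer cells of a type and less RNA per cell cannot be told apart.

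Of 9 hepatocyte markers 8 were tested, and all 8 were well above background on every array. So were all tested members, other pericentral genes and periportal genes. This held for only 5 of 12 lymphocyte and neutrophil markers and 2 of 4 tested cholangiocyte markers. It held for 6 of 10 tested Wnt and R-spondin ligand genes and 18 of 26 tested receptor and signal transduction genes. The rest of these lists was dim on at least 1 array. The share of probes well above background was 36.3% to 69.2% per array. Arrays lay on 5 slides. C and MCD mice before PH shared a slide, as did both treated groups before PH and both treated groups after PH. In every other comparison slide and group cannot be told apart, apart from the 2 differences of differences named below, in which an additive slide difference cancels. C and MCD arrays after PH were also read on another scanner than all other arrays. The scanner thus differs too for time in C and in MCD mice and for the drug after PH on either diet.

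One array stood apart. C after PH replicate 1 had a mean correlation of 0.949 with its group, against 0.967 to 0.984 for the other 31 arrays. All 9 tested members were lower on it than the mean of the other 3 arrays of the group, by a difference of -0.92 for Rnf43 to -3.12 for Slc1a2 with a median of -2.01. The median over all tested genes was -0.14. On the same array 8 of 8 hepatocyte markers were lower, with a median difference of -0.60. The other 21 pericentral genes had a median difference of -1.18 and the 20 periportal genes of -0.52, and 17 and 15 of them were lower. All 12 macrophage markers were higher, with a median of 1.40, and all 4 cholangiocyte markers were higher, with a median of 2.23. The part of these cell markers in the members' values was not tested. For several members, results that rest on this array are given with and without it. Counts and changes of the other gene lists in comparisons with C mice after PH include it throughout. It also widens the spread that all groups share in the model, so leaving it out changes adjusted p-values in comparisons that do not hold it.

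**Figure D1:**
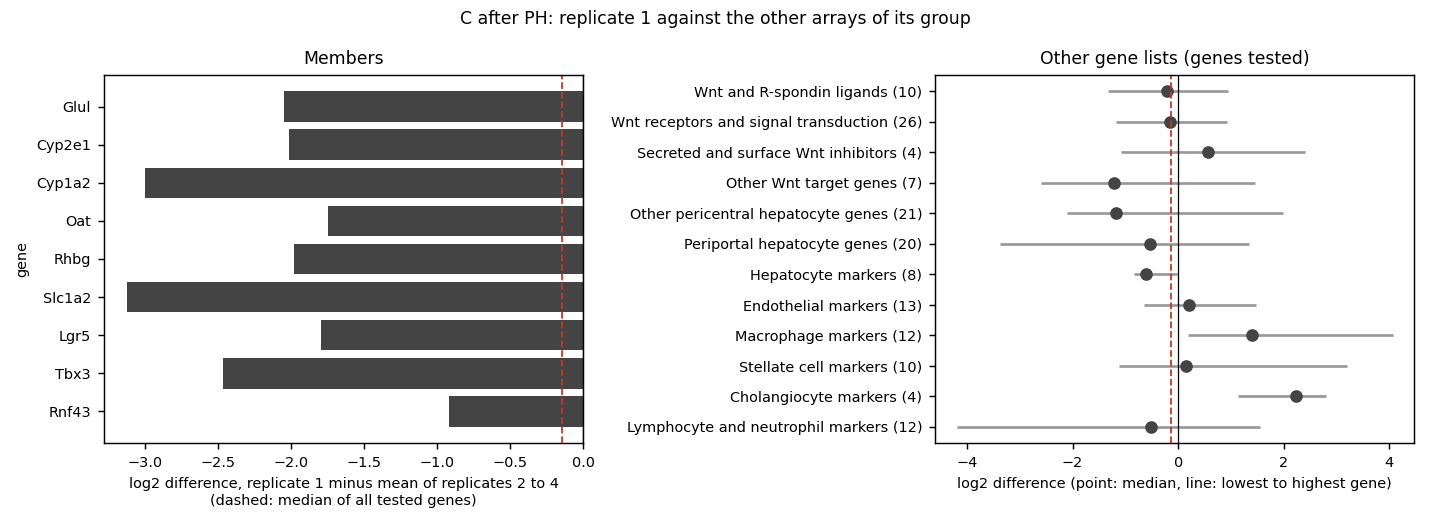
Log2 difference between C after PH replicate 1 and the mean of the other 3 C arrays after PH, for each of the 9 tested members and for the median of each marker list. All 9 members lie below 0, from -0.92 for Rnf43 to -3.12 for Slc1a2, while the macrophage median is 1.40.

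The promoters of the members were searched for the letters that TCF/LEF factors, the DNA-binding partners of β-catenin, prefer. RefSeq windows from 250 bases before to 50 bases after the gene start (GRCm38.p6) were at hand for 7 members in 8 windows. CTTTGAA was searched on both strands and stood in 5.135% of 32851 mouse promoter windows, and CTTTGAT stood in 3.729%. Of the 8 member windows, 3 held one of these motifs, against 8.651% of all windows. They are shown because Cyp2e1, Cyp1a2 and Slc1a2 are the members whose windows hold the letters of the pathway, printed in capitals and in the direction of the gene.
Cyp2e1 promoter, chr7:140763644-140763730, + strand: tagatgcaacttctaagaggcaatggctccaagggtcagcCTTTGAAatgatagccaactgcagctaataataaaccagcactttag
Cyp1a2 promoter, chr9:57683853-57683905, - strand: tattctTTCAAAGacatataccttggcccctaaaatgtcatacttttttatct
Slc1a2 promoter, chr2:102706191-102706277, + strand: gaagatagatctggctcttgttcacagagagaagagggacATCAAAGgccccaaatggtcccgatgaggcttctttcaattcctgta
The motif began 135 bases before the gene start in Cyp2e1, 244 in Cyp1a2 and 207 in Slc1a2, and it read on the opposite strand in the latter pair. Such a match is a run of letters and not a shown site. GTTAAT, a motif of the hepatocyte factor HNF1, stood in 7.099% of all windows and in no member window. GCGTG, the core of the site of the aryl hydrocarbon receptor, a known inducer of Cyp1a2, stood in 32.39% of all windows and among the members only in an Rnf43 window. No window was at hand for Rhbg, Lgr5 and Tbx3.

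Each member was read by a 60-base probe. Because results for Cyp2e1 turn on which of its probes is used, the probe nearer the 5′ end is shown, with the probe of Slc1a2 beside it (mm9).
Cyp2e1 probe, chr7:147956922-147956981, + strand: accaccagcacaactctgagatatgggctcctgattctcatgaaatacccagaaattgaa
Slc1a2 probe, chr2:102617752-102617811, + strand: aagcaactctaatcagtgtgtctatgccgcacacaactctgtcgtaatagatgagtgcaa
The brighter Cyp2e1 probe, which stood for the gene, lies at chr7:147960628-147960687 on the + strand, near the 3′ end of the transcript.

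**Figure D2:**
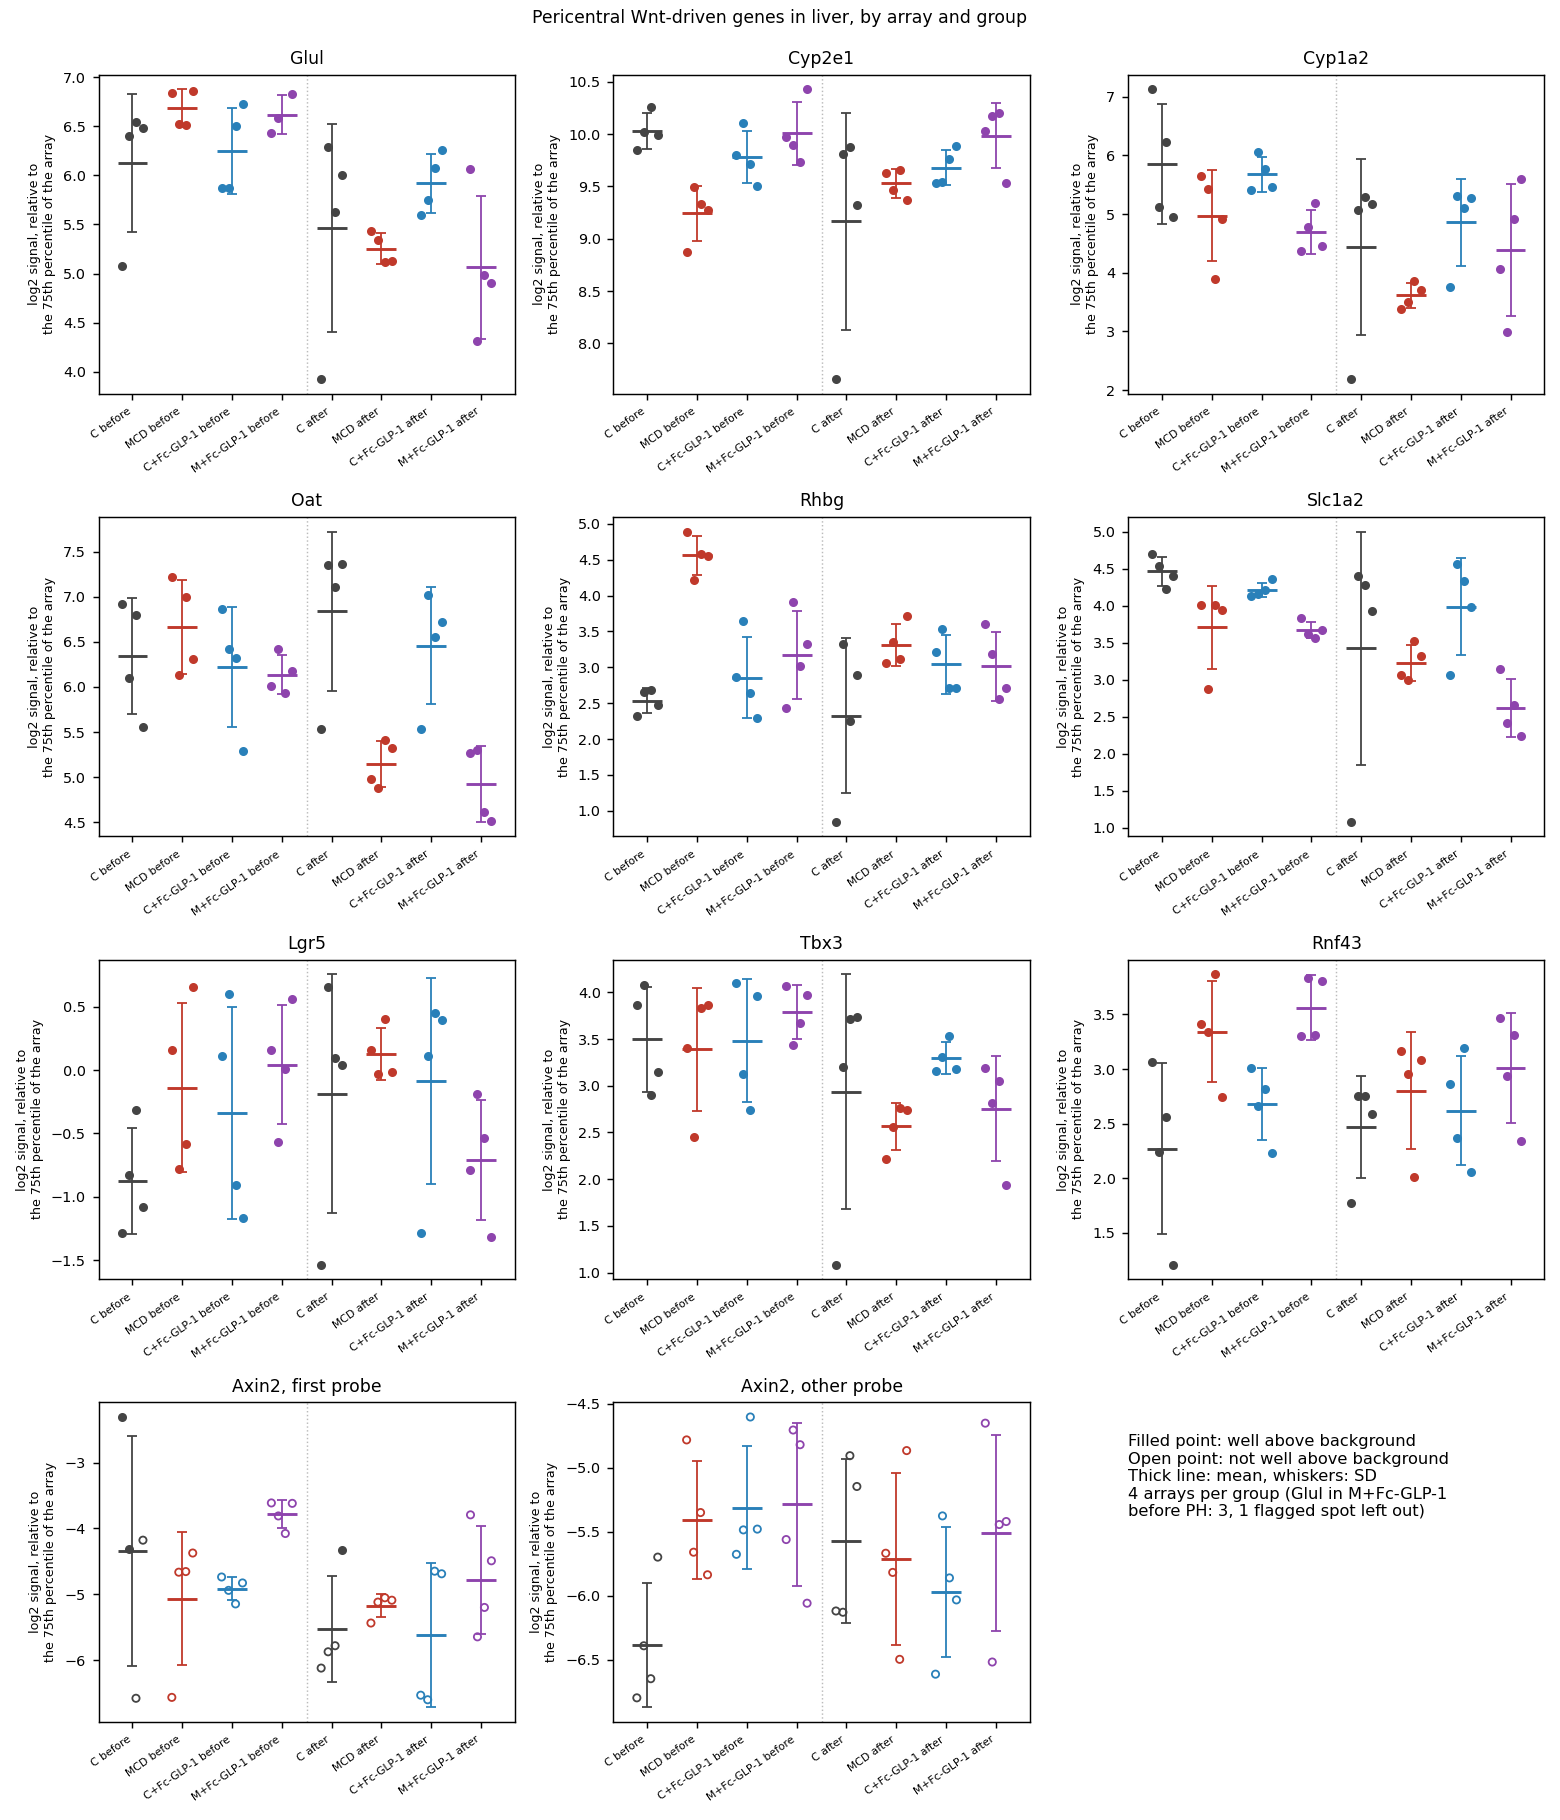
Log2 signal of each member relative to the 75th percentile of the array, for 4 arrays in each of 8 groups before and after PH, with the mean as a thick line and the SD as whiskers. Rhbg is highest in the 4 MCD arrays before PH, and Oat has its lowest means in MCD and M+Fc-GLP-1 mice after PH. Both Axin2 probes lie mostly in open points, not well above background.

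Before PH, the members' changes with the MCD diet had both signs, but only rises were called. Rhbg and Rnf43 rose, 2 of 9 tested members, and none fell. Among all tested genes 25.8% were called in this comparison, 12.1% as higher, so the members' share was near the background. The split of all called genes depends on the scaling, with 47.0% of them higher here and 79.3% with each array centred on its median. The median change of the members was 0.32 against -0.07 for all genes, with 5 positive and 4 negative.

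Rhbg encodes an ammonia transporter of the pericentral cell membrane (probe at chr3:88047265-88047324, mm9). It measured 2.32, 2.66, 2.69 and 2.47 in C mice and 4.89, 4.22, 4.58 and 4.55 in MCD mice before PH. Every MCD array lay above every C array. The rise was 2.03 (SE 0.38, 95% interval 1.25 to 2.80), or 4.08-fold, with an adjusted p of 0.000278, and it remained called under every alternative tried. With drug it measured 2.86, 3.64, 2.64 and 2.30 on chow and 2.43, 3.90, 3.02 and 3.33 on the MCD diet. On the MCD diet Rhbg was lower with Fc-GLP-1 than without it, by -1.39 (SE 0.38, 95% interval -2.16 to -0.61, adjusted p = 0.0263), again without overlap between the groups. This call was lost when MCD replicate 1 or 3 or M+Fc-GLP-1 replicate 1 or 3 was left out, with adjusted p-values up to 0.0979 and changes between -1.14 and -1.38. Rhbg was 1 of 9 members called in that comparison, where 6.76% of all genes were called, 3.00% as lower. The groups did not overlap for 16.1% of all tested genes there. Of the called genes 55.7% were higher, and 12.6% with median centring.

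The effect of the diet on Rhbg was 0.31 (SE 0.38, 95% interval -0.46 to 1.09, adjusted p = 0.658) under Fc-GLP-1. The difference between the effects of the diet with and without drug was -1.71 (SE 0.54, 95% interval -2.81 to -0.62) with an adjusted p of 0.0535, just short of the threshold. It passed in 7 of 27 settings, among them the fit without C after PH replicate 1, at 0.0179, and median centring, with -2.33 and 0.00656. No member was called in this difference of differences, in which 5.83% of all genes were called and 2 members, Cyp2e1 and Rhbg, had an unadjusted p under 0.05. MCD mice before PH had the highest mean Rhbg level of the 8 groups, and their range did not overlap that of MCD mice after PH, the next in order. The ranges of all later neighbours overlapped.

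Rnf43, a ubiquitin ligase that removes Wnt receptors from the cell surface, lies with its probe at chr11:87548958-87549017 (mm9). Before PH it measured 3.06, 2.24, 2.56 and 1.21 in C mice and 3.41, 3.34, 3.87 and 2.75 in MCD mice. The highest C array lay above the lowest MCD array. The rise of 1.07 (SE 0.35, 95% interval 0.36 to 1.78, 2.10-fold) had an adjusted p of 0.0234. Without C before PH replicate 4 the change was 0.72 with an adjusted p of 0.127, and without MCD before PH replicate 3 it was 0.90 with 0.0855. Nor did Rnf43 pass with the authors' normalized values (1.00, adjusted p = 0.139), with normexp and quantile normalization (1.01, adjusted p = 0.0765) or with only the groups compared (adjusted p = 0.0707). Under Fc-GLP-1, levels were 3.01, 2.66, 2.82 and 2.23 on chow and 3.31, 3.83, 3.31 and 3.80 on the MCD diet. These groups did not overlap, but the change of 0.88 (SE 0.35) had an adjusted p of 0.103.

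The part of other cells in these values was not tested, but their markers moved with the diet. Of 12 macrophage markers 8 rose and 1 fell in MCD mice before PH, with a median change of 1.66. Their summed log2 level was 6.29 to 7.03 in C mice and 7.32 to 8.80 in MCD mice. With drug it was 6.69 to 7.44 on chow and 5.93 to 7.25 on the MCD diet. Of 8 hepatocyte markers 2 fell and none rose. Their summed level was 11.8 to 12.3 in C mice and 11.5 to 11.6 in MCD mice. With drug it was 11.7 to 12.4 on chow and 11.5 to 12.2 on the MCD diet. Of 10 stellate cell markers 4 rose and none fell with the diet, and of 12 lymphocyte and neutrophil markers 4 rose and 2 fell.

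**Figure D3:**
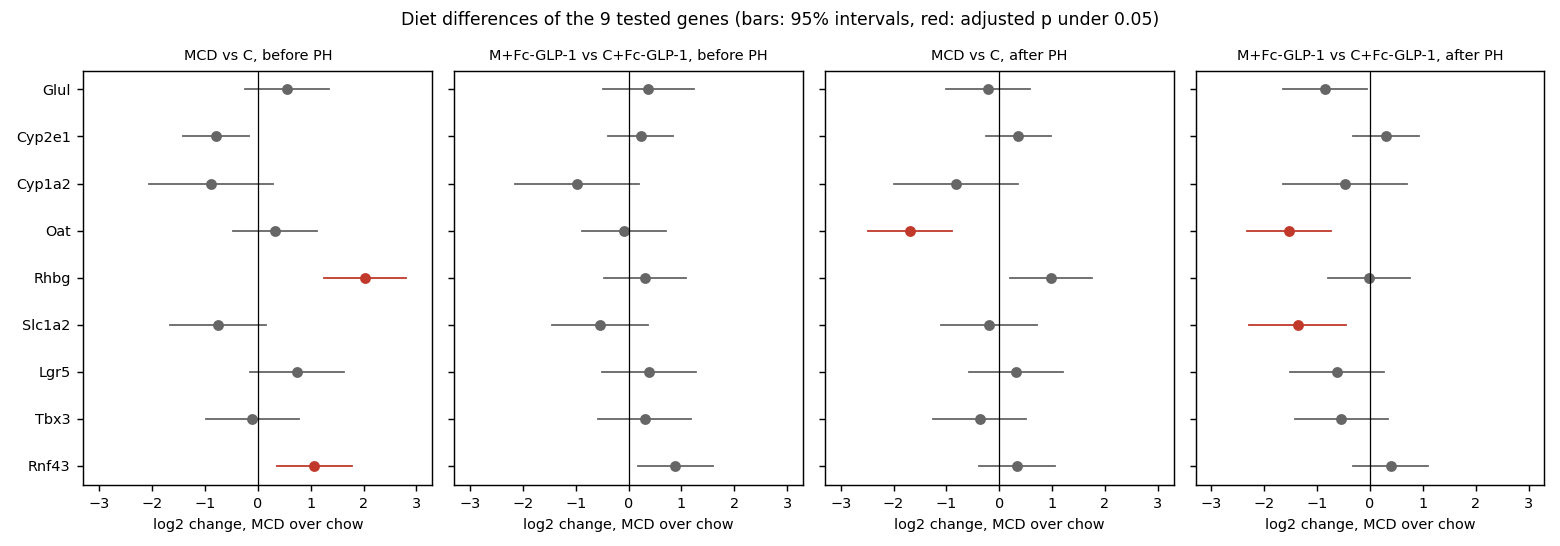
Log2 change of each tested member between mice on the MCD diet and on chow, before and after PH, without and with Fc-GLP-1, with 95% intervals. Points and intervals are red where the adjusted p was under 0.05. Rhbg (2.03) and Rnf43 (1.07) are called before PH without drug, Oat after PH without drug (-1.69) and with it (-1.53), and Slc1a2 after PH with it (-1.37).

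Cyp2e1, which oxidises ethanol and many solvents and drugs, was read by probes that disagreed. The probe nearer the 3′ end measured 9.85, 10.02, 10.26 and 9.99 in C mice and 8.87, 9.49, 9.33 and 9.27 in MCD mice before PH. These groups did not overlap. The change was -0.79 (SE 0.30, 95% interval -1.41 to -0.17) with an adjusted p of 0.0540. Without C after PH replicate 1 the same change had an adjusted p of 0.00435. The probe nearer the 5′ end had means of 9.52 ± 0.43 in C and 9.46 ± 0.27 in MCD mice (SD, n = 4), a change of -0.06 (adjusted p = 0.941). The normalized values of the authors gave 0.01 (adjusted p = 0.986) with the probe nearer the 3′ end, and normexp with quantile normalization gave -0.02 (adjusted p = 0.970). No direction is given for Cyp2e1. Its probes had a correlation of 0.71 over 32 arrays and of 0.32 over the 31 without C after PH replicate 1.

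**Figure D4:**
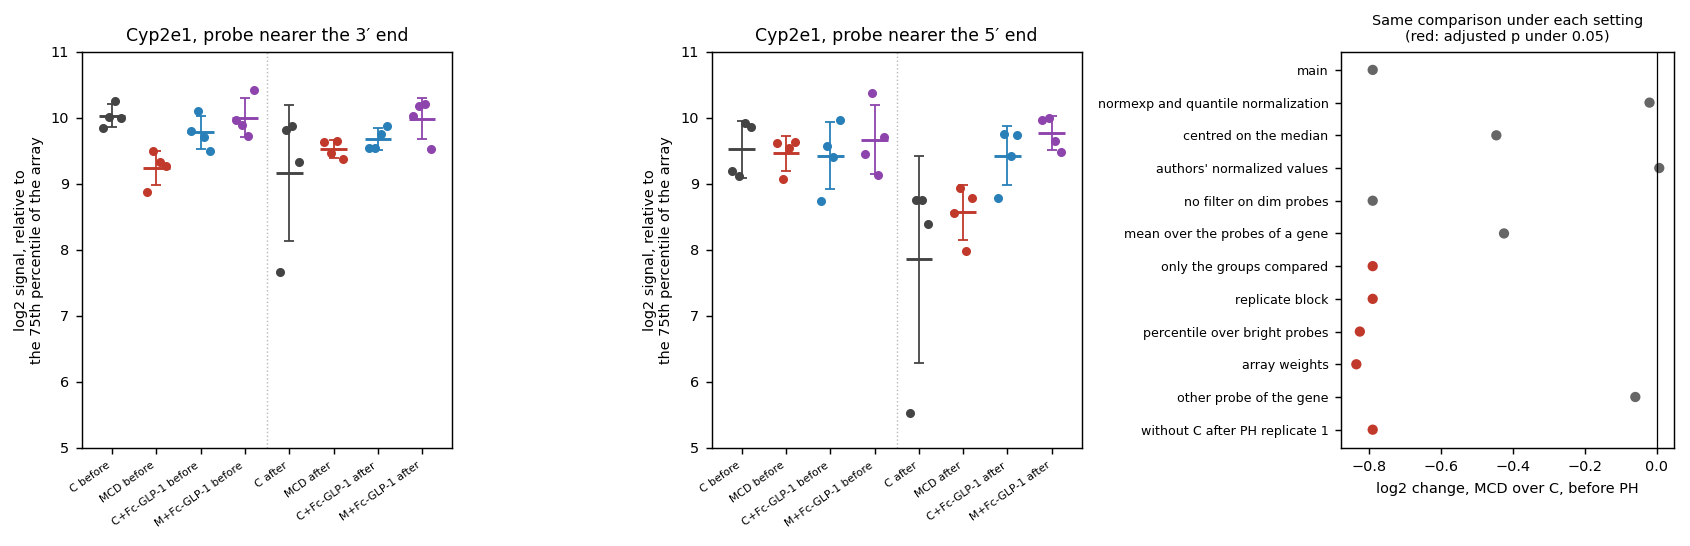
Cyp2e1 by array for its probe nearer the 3′ end (left) and nearer the 5′ end (middle), as log2 signal relative to the 75th percentile of the array with mean and SD, and (right) the log2 change between MCD and C mice before PH under each setting. The change lies near -0.79 in some settings and near 0 with normexp and quantile normalization, the normalized values of the authors or the other probe.

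Glul encodes glutamine synthetase, which is made only in the innermost pericentral hepatocytes (probe at chr1:155756765-155756824, mm9). Before PH it measured 5.08, 6.40, 6.55 and 6.48 in C mice, 6.84, 6.52, 6.51 and 6.86 in MCD mice and 5.88, 5.88, 6.51 and 6.73 in C+Fc-GLP-1 mice. In M+Fc-GLP-1 mice it measured 6.43, 6.59 and 6.83, because the spot of replicate 3 was flagged as an outlier and left out. C replicate 1 was low, and all groups overlapped. The diet changed Glul by 0.56 (SE 0.39, adjusted p = 0.301) without drug and by 0.37 (SE 0.42, adjusted p = 0.637) with it.

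Slc1a2, a glutamate transporter, measured 4.70, 4.53, 4.23 and 4.40 in C mice and 4.01, 2.87, 4.01 and 3.94 in MCD mice before PH. The groups did not overlap, and MCD replicate 2 was far below the others. The change of -0.76 (SE 0.44) had an adjusted p of 0.213, and of 0.0366 without C after PH replicate 1. It was -1.25 with the authors' normalized values (adjusted p = 0.00371) and with normexp and quantile normalization (adjusted p = 0.0252). Under Fc-GLP-1 the values were 4.13 to 4.35 on chow and 3.57 to 3.83 on the MCD diet, a difference of -0.54 (SE 0.44, adjusted p = 0.486) without overlap. The other kept probe of Slc1a2 was higher on the MCD diet with drug, at 0.10 ± 0.56 against -0.16 ± 0.52 on chow (SD, n = 4). Without drug it was lower, at -0.20 ± 0.56 in MCD and 0.42 ± 0.68 in C mice. Its groups overlapped in both comparisons. The share of all tested genes whose groups did not overlap was 28.1% for the diet without drug and 15.5% with it, and 3 of 9 members did not overlap in each.

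Cyp1a2 oxidises caffeine and aromatic amines. Its means before PH were 5.86 ± 1.02 in C mice and 4.97 ± 0.78 in MCD mice (SD, n = 4). With drug they were 5.68 ± 0.30 on chow and 4.70 ± 0.37 on the MCD diet. The diet changed it by -0.88 (SE 0.57, adjusted p = 0.261) without drug and by -0.98 (SE 0.57, adjusted p = 0.294) with it, the latter without overlap. Oat, the ornithine aminotransferase that feeds glutamate synthesis, was at 6.34 ± 0.64 in C and 6.66 ± 0.52 in MCD mice, a change of 0.32 (SE 0.39, adjusted p = 0.574).

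Lgr5, a receptor for R-spondins, has its probe at chr10:114887403-114887462 and Tbx3, a transcription factor, at chr5:120134511-120134570 (mm9). Lgr5 before PH lay between -1.28 and -0.31 in C mice and between -0.78 and 0.65 in MCD mice, and differed by 0.74 (SE 0.44, adjusted p = 0.216). Tbx3 ranged from 2.91 to 4.08 in C and from 2.45 to 3.87 in MCD mice, with a difference of -0.11 (SE 0.43, adjusted p = 0.880). Axin2, the scaffold that helps to degrade β-catenin, gave no usable level. Its first probe was well above background on 3 of 32 arrays, namely C before PH replicates 1 and 2 and C after PH replicate 4, and its other probe on 0. Values of the first probe ran from -6.58 to -2.31 within C mice before PH.

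On chow, Fc-GLP-1 changed no member before PH, where limma called 2.28% of all genes and 0 members had an unadjusted p under 0.05. Changes ran from -0.25 to 0.54, with adjusted p-values of 0.537 or more. The widest 95% interval, that of Cyp1a2, was -1.35 to 0.99. Under Fc-GLP-1 the diet also moved no member past the threshold before PH. In that comparison 10.6% of all genes were called, and 1 member, Rnf43, had an unadjusted p under 0.05.

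At 2 weeks after PH, Oat was lower in MCD than in C mice, and the diet difference had the same direction with drug. Slc1a2 was lower on the MCD diet with drug. Without drug 1 of 9 members was called, as lower, against 12.5% of all genes, 5.96% as lower. With drug 2 of 9 were called, as lower, against 13.1% of all genes, 6.59% as lower. Without drug 52.2% of all called genes were higher, 62.3% with median centring and 38.4% with a percentile over bright probes.

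After PH, Oat (probe at chr7:139749726-139749785, mm9) measured 5.53, 7.36, 7.11 and 7.36 in C mice and 4.98, 4.88, 5.41 and 5.33 in MCD mice. All MCD arrays were below all C arrays, even with the low C replicate 1. The change was -1.69 (SE 0.39, 95% interval -2.49 to -0.90), or 3.23-fold, with an adjusted p of 0.00421. Without C replicate 1 it was -2.13 with an adjusted p of 0.000152. Under Fc-GLP-1, Oat was at 5.53, 7.02, 6.55 and 6.72 on chow and at 5.27, 5.30, 4.61 and 4.51 on the MCD diet. These groups, which shared a slide, also did not overlap, and the change was -1.53 (SE 0.39, 95% interval -2.33 to -0.74) or 2.90-fold, with an adjusted p of 0.00813. Both calls held under every alternative tried. Of all tested genes 17.6% did not overlap for the diet without drug after PH and 16.9% with it. The effect of the diet under drug was more negative after than before PH by -1.45 (SE 0.55, 95% interval -2.57 to -0.32), with an unadjusted p of 0.0137 and an adjusted p of 0.370. This difference of differences, in which only 0.0892% of all genes passed, called 0 members and had 2, Glul and Oat, at an unadjusted p under 0.05.

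Slc1a2 after PH measured 1.08, 4.40, 4.28 and 3.93 in C mice and 3.06, 3.00, 3.52 and 3.31 in MCD mice. With C replicate 1 the difference was -0.20 (adjusted p = 0.828), and without it -0.98 (adjusted p = 0.0221). Under Fc-GLP-1 it measured 3.07, 4.57, 4.33 and 3.99 on chow and 3.14, 2.42, 2.66 and 2.24 on the MCD diet, where replicate 1 of each group overlaps the other group. The fall of 1.37 on the log2 scale had an SE of 0.44, an interval of -2.28 to -0.46 and an adjusted p of 0.0385. It was lost in 6 of 9 fits that left out an array, and the other kept probe of Slc1a2 gave -0.56 (adjusted p = 0.538). With the authors' normalized values the change was -1.33 (adjusted p = 0.101).

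Cyp1a2 after PH measured 2.18, 5.07, 5.30 and 5.18 in C mice and 3.38, 3.51, 3.87 and 3.70 in MCD mice. All MCD arrays lay below 3 C arrays and above C replicate 1. The difference was -0.82 (adjusted p = 0.394) with that array and -1.57 (adjusted p = 0.0342) without it. With drug, Cyp1a2 had means of 4.86 ± 0.74 on chow and 4.39 ± 1.12 on the MCD diet (SD, n = 4), a difference of -0.47 (SE 0.57, adjusted p = 0.675).

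Rhbg after PH measured 0.85, 3.32, 2.25 and 2.90 in C mice and 3.06, 3.35, 3.12 and 3.71 in MCD mice. The difference of 0.98 (SE 0.38, adjusted p = 0.0893) became 0.49 (adjusted p = 0.365) without C replicate 1 and 1.31 (adjusted p = 0.0313) without C replicate 2. Under Fc-GLP-1 it was -0.03 (SE 0.38, 95% interval -0.80 to 0.75). For Cyp2e1 the difference of 0.36 without drug (adjusted p = 0.491) turned to -0.14 (adjusted p = 0.730) without C replicate 1. Glul was at 3.92, 6.28, 5.63 and 6.01 in C mice and at 5.43, 5.34, 5.12 and 5.12 in MCD mice. With drug it was at 5.59, 5.75, 6.08 and 6.26 on chow and at 6.06, 4.31, 4.98 and 4.91 on the MCD diet, and the groups overlapped. Its diet difference was -0.21 (SE 0.39, adjusted p = 0.790) without drug and -0.85 (SE 0.39, adjusted p = 0.161) with it. Lgr5, Tbx3 and Rnf43 differed by 0.31, -0.37 and 0.34 without drug and by -0.62, -0.54 and 0.39 with it, with adjusted p-values of 0.403 or more.

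Fc-GLP-1 moved no member past the threshold after PH. On chow limma called 2.25% of all genes, and on the MCD diet 6.70%, with 0 members at an unadjusted p under 0.05 in both. On chow 8 of 9 changes were positive, with a median of 0.43. Without C replicate 1, Cyp1a2, Glul, Lgr5, Rnf43, Slc1a2 and Tbx3 turned negative, from -0.06 to -0.35. The Cyp2e1 probe nearer the 5′ end ran from 5.52 to 8.76 in C and from 8.79 to 9.76 in C+Fc-GLP-1 mice. Its means were 7.86 ± 1.57 and 9.43 ± 0.45 (SD, n = 4). On the MCD diet the changes of the probes that stood for the genes ran from -0.83 for Lgr5 to 0.78 for Cyp1a2. Their 95% intervals were -1.73 to 0.06 and -0.39 to 1.95, and the groups did not overlap for Lgr5. The Cyp2e1 probe nearer the 5′ end had means of 8.57 ± 0.42 without and 9.77 ± 0.25 with drug (SD, n = 4), without overlap. Among all tested genes 14.5% did not overlap in that comparison.

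**Figure D5:**
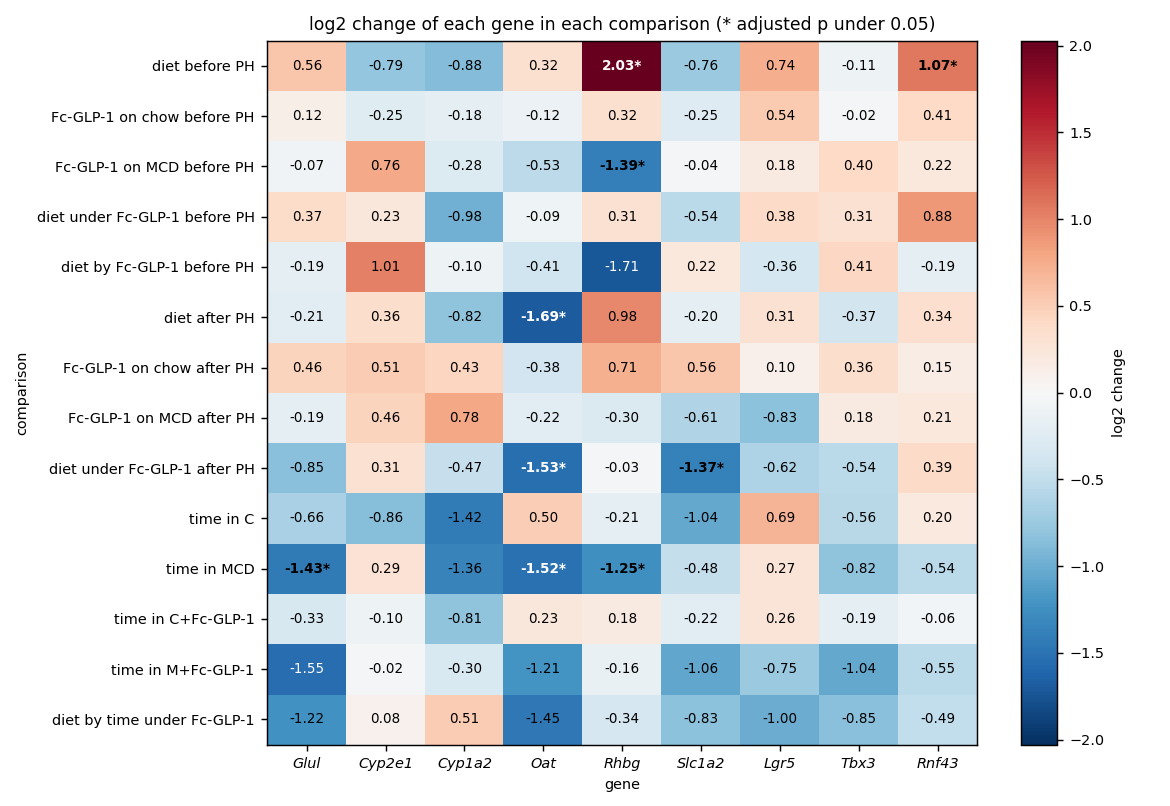
Log2 change of each tested member (columns) in each of 14 comparisons (rows), red for higher and blue for lower in the first group, with stars where the adjusted p was under 0.05. The 9 stars fall on Rhbg (3), Oat (3), Glul, Slc1a2 and Rnf43 (1 each).

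Between PH and 2 weeks later, 3 of 9 members fell in MCD mice, Glul, Oat and Rhbg. None rose, and 9.47% of all genes were called, 3.67% as lower. Of all called genes 61.2% were higher, 72.5% with a percentile over bright probes and 51.7% with median centring. Glul fell by 1.43 on the log2 scale (SE 0.39, 2.70-fold, adjusted p = 0.0189), from the 4 values between 6.51 and 6.86 to 5.12 to 5.43. Oat lay between 6.14 and 7.22 before PH and, as above, between 4.88 and 5.41 after it, a change of -1.52 (SE 0.39, 2.86-fold, adjusted p = 0.0130). Rhbg changed by -1.25 (SE 0.38, 2.38-fold, adjusted p = 0.0338). The groups did not overlap in any of the 3. Cyp1a2 also did not overlap, with a change of -1.36 (SE 0.57, adjusted p = 0.137). Of all tested genes 19.8% did not overlap. Arrays before and after PH lay on different slides and scanners in MCD mice, so slide and time cannot be told apart. Rhbg lost its call in 6 of 9 fits that left out an array and Glul in 1. With normexp and quantile normalization none of the 3 calls held, with adjusted p-values of 0.0719, 0.0581 and 0.0876. Markers of other cells moved in the same comparison, and their part was not tested. Of 12 lymphocyte and neutrophil markers 4 rose and 1 fell, among them S100a8 (3.71, SE 0.68) and S100a9 (2.83, SE 0.61) of neutrophils, and their summed log2 level was between 3.27 and 5.03 before PH and between 6.09 and 7.40 after it, without overlap. All 10 stellate cell markers had negative changes and 2 were called, 1 of 4 cholangiocyte markers fell, and 1 of 12 macrophage markers rose.

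In M+Fc-GLP-1 mice the changes of all 9 members after PH were negative, from -0.02 for Cyp2e1 to -1.55 for Glul. Their median was -0.75 against -0.01 for all genes. The Cyp2e1 probe nearer the 5′ end was slightly higher after PH, at 9.77 ± 0.25 against 9.67 ± 0.52 before it (SD, n = 4). No member was called, where 1.62% of all genes were. The groups did not overlap for 4 members with an unadjusted p under 0.05 (Glul, Oat, Slc1a2 and Tbx3). Glul had an adjusted p of 0.0544 (change -1.55, SE 0.42, with 3 arrays before PH), Oat of 0.104 (-1.21, SE 0.39), Slc1a2 of 0.228 (-1.06, SE 0.44) and Tbx3 of 0.221 (-1.04, SE 0.43). Without C after PH replicate 1, which belongs to neither group but enters the shared spread, Glul, Oat and Slc1a2 passed at 0.0117, 0.0481 and 0.0299. Of all genes 9.01% did not overlap.

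In C mice no member was called between PH and 2 weeks later, against 14.2% of all genes. Cyp2e1, Cyp1a2 and Slc1a2 had an unadjusted p under 0.05, with changes of -0.86 (adjusted p = 0.0538), -1.42 (adjusted p = 0.0910) and -1.04 (adjusted p = 0.111). Without replicate 1 after PH these were -0.36, -0.67 and -0.26. The Cyp2e1 probe nearer the 5′ end gave -1.67 (adjusted p = 0.0150), the mean over its probes -1.27 (adjusted p = 0.0162), and normexp with quantile normalization -0.15 for Cyp2e1 (adjusted p = 0.755) and -1.39 for Slc1a2 (adjusted p = 0.0234). Of the macrophage markers 11 of 12 rose, with a median change of 2.06 and a summed level of 7.32 to 9.54 after PH. These values include replicate 1, which had the level of 9.54, while the highest of the other C arrays after PH was 8.46. In C+Fc-GLP-1 mice limma called 0.802% of all genes, 0 members, and 0 members at an unadjusted p under 0.05. The changes there ran from -0.81 for Cyp1a2, whose groups did not overlap, to 0.26 for Lgr5. Of all tested genes 9.08% did not overlap in C+Fc-GLP-1 mice over time.

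Of 10 tested Wnt and R-spondin ligand genes, a list that includes the secretion factors Wls and Porcn, 1 rose and 1 fell with the diet before PH, and 2 rose and 0 fell with median centring. The gene that rose was Rspo3 (1.25, SE 0.29, adjusted p = 0.00206), the R-spondin of the central vein, and the gene that fell was Porcn (-0.81, SE 0.22), which attaches the lipid that Wnt proteins need. With drug Rspo3 was also higher on the MCD diet than on chow before PH (1.12, SE 0.29, adjusted p = 0.0104) and in MCD than in C mice after PH (1.25, SE 0.29, adjusted p = 0.00403). After PH Wnt9b was higher in MCD than in C mice (1.09, SE 0.35, adjusted p = 0.0369), and in MCD mice it rose from before to after PH by 1.42 (SE 0.35, adjusted p = 0.00940). With Fc-GLP-1 on the MCD diet after PH, Wnt2 was higher (1.63, SE 0.39, adjusted p = 0.0117) and Rspo3 lower (-0.92, SE 0.29, adjusted p = 0.0482).

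Of 26 tested receptor and signal transduction genes, 1 rose and 5 fell with the diet before PH, among them the β-catenin destruction factor Apc (-1.86, SE 0.41) and the receptor Fzd8 (-1.25, SE 0.39). The median of the list was -0.12, but with median centring it was 0.23, with 4 genes higher and 1 lower. On the MCD diet before PH Fzd4 was higher with drug than without it (1.36, SE 0.27, adjusted p = 0.00365). With drug it was also higher on the MCD diet than on chow before PH (1.79, SE 0.27) and after PH (1.16, SE 0.27). After PH with drug Fzd7 fell with the diet (-1.47, SE 0.50, adjusted p = 0.0483), and without drug the factor Tcf7 was higher (1.27, SE 0.34). Lgr4, the other R-spondin receptor of liver, rose from before to after PH in MCD mice (1.39, SE 0.42, adjusted p = 0.0323).

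Only 4 of 14 secreted and surface inhibitors were tested. With the diet before PH Dkk3 (1.87, SE 0.43) and Frzb (1.67, SE 0.55) rose, and Notum, an enzyme that strips the lipid from Wnt proteins, fell (-0.95, SE 0.34, adjusted p = 0.0367). Of 7 tested Wnt target genes outside the members, 5 rose and none fell in the same comparison, with a median change of 1.31. They were Ccnd1 (3.23, SE 0.43) and Myc (1.95, SE 0.47), which drive cell division, Tnfrsf19 (1.44, SE 0.36), Lect2 (1.31, SE 0.31) and the Wnt antagonist Nkd1 (1.01, SE 0.34). Under Fc-GLP-1 2 of the 7 rose with the diet, Ccnd1 (2.63, SE 0.43) and Myc (1.89, SE 0.47). From before to after PH in MCD mice Sp5 (-1.57, SE 0.50) and Tnfrsf19 (-1.53, SE 0.36) fell.

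The other genes of the zones were read beside the members. Of 21 other pericentral genes, 2 rose and 5 fell with the diet before PH, among them Cyp27a1 (-2.12, SE 0.37) of bile acid synthesis, the cytochromes Cyp2c37 (-1.66, SE 0.43) and Cyp2c50 (-1.56, SE 0.38), and the glutathione transferase Gstm2 (1.50, SE 0.26). The list's median change was -0.07, equal to that of all genes after rounding, and it was 0.27 with median centring, with 3 genes higher and 4 lower. Of 20 periportal genes 1 rose and 7 fell, with a median of -0.66. With median centring 1 rose and 2 fell, with a median of -0.31. The genes that fell included Otc (-1.33, SE 0.42) and Asl (-1.17, SE 0.34) of the urea cycle, Hal (-1.34, SE 0.39) and Sds (-1.20, SE 0.30), which break down histidine and serine. Fc-GLP-1 on the MCD diet before PH went with higher Arg1 (1.03, SE 0.28), Sds (1.02, SE 0.30) and Pigr (1.11, SE 0.31) among the periportal genes and with none lower, but with median centring no periportal gene was called. Of the pericentral genes Cyp2c37 (1.56, SE 0.43) was higher there, and Slc13a3 (-1.34, SE 0.35) and Gstm2 (-0.98, SE 0.26) were lower. In the same comparison 5 of 12 macrophage markers fell and none rose, with a median of -1.66.

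After PH without drug, 1 of 21 pericentral genes rose and 5 fell with the diet, with Cyp2c54 (-1.95, SE 0.57), Cyp7a1 (-1.92, SE 0.61), the first enzyme of bile acid synthesis, Cyp27a1 (-1.56, SE 0.37) and Rgn (-1.47, SE 0.33) the largest. Of 20 periportal genes 1 rose and 4 fell, with Otc (-1.88, SE 0.42) the largest, and 2 to 7 fell with the other scalings. With drug, 2 pericentral genes rose and 4 fell, with Cyp2c54 (-1.87, SE 0.57), Rgn (-1.74, SE 0.33) and the vasopressin receptor Avpr1a (-1.59, SE 0.49) the largest falls. Among the periportal genes Otc fell (-2.62, SE 0.42) while Sds (1.58, SE 0.30), Pck1 (1.50, SE 0.36) and Sdsl (0.90, SE 0.27) rose. Oat, which uses the ornithine that Otc also uses, fell in both of these comparisons. Markers of other cells moved as well, and their part was not tested. Without drug 3 of 12 lymphocyte and neutrophil markers rose and none fell, up to 3.03 (SE 0.68) for S100a8. Of these 12 markers 7 had negative and 5 positive changes, with a median of -0.09. Their summed log2 level was 4.41 to 5.46 in C mice and 6.09 to 7.40 in MCD mice. Of 10 stellate cell markers 1 rose and 2 fell, and no macrophage marker was called. With drug 4 lymphocyte and neutrophil markers fell and none rose, with a summed level of 4.31 to 6.04 on chow and 3.77 to 5.69 on the MCD diet. In that comparison 1 of 12 macrophage markers and 1 of 13 endothelial markers fell.

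The 36 pairs of tested members had a median correlation of 0.32 over 32 arrays, with a range from -0.02 to 0.76 and 2 negative pairs. Over the 31 arrays without C after PH replicate 1 the median was 0.14, with a range from -0.51 to 0.73 and 10 negative pairs. These arrays share groups and slides, and no p is given.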

How the data were processed

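The arrays were 1-colour Agilent arrays with 60-base probes. The authors deposited processed signals, a linear intensity that was background corrected and detrended by Feature Extraction 10.7.3.1 per the file headers. They also deposited normalized log2 values made within each time point, for which the submitters' processing notes name limma, with the version not given in the sources used here. Each array was scaled on its own, by subtracting the log2 of its 75th percentile (180.2 to 647.5) from the log2 signals. The percentile was taken over the 55681 probes, after the 59305 spots without controls had been averaged by probe. Spots flagged as outliers were left out, which affected 313 genes. A probe was kept if at least 1 group had it well above background on each of its 4 arrays (29323). Of 55681 probes, 27656 took a RefSeq symbol. Where a gene had several kept probes the brightest was used, which left 21309 genes. Precision is limited by the number of arrays.

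A linear model of all 8 groups was fitted with limma 3.58.1 (R 4.3.3) and gave 14 comparisons, and p-values were adjusted by the method of Benjamini and Hochberg over all tested genes in each comparison. On simulated data for the comparison of MCD with C before PH over 21309 genes, it recovered 23% of changes of 1 and 84% of changes of 2 on the log2 scale. There 100 genes had each size of change and 21109 had none, with independent noise. The real comparison called 25.8% of genes, so its threshold for an adjusted p differs and these shares do not describe it. The members, lists and tests were chosen with earlier results of these data known. All members are named, and from other lists the called genes, up to 4 a list by size, and a fixed set of pathway and zone genes. Alternatives were normexp with an offset of 50 and quantile normalization, median centring, the authors' values, no filter, the mean over probes, only the groups compared, a replicate block and leaving out each array. Added after seeing the data were array weights, a percentile over bright probes, the other probe, the flagged spot and leaving out C after PH replicate 1 everywhere. Likeness to a member was measured by Pearson's correlation over arrays.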

Additional observations from a re-analysis of the deposited data

Results flagged for a closer look

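Among 71 sets of 4 arrays, 1 for each tested member and group with 4 values, 7 held an array far below the others of its group, by the gap to the nearest array over the range of the group. Chance alone flags about 1 in 20 such groups. C after PH replicate 1 gave 4 of the 7. It measured 2.18 for Cyp1a2, with the nearest array at 5.07 (0.928 of the range), 5.53 for Oat, with the nearest at 7.11 (0.865), 1.08 for Slc1a2, with the nearest at 3.93 (0.859), and 1.78 for Rnf43, with the nearest at 2.59 (0.830). The others were C before PH replicate 1 for Glul, at 5.08 with the nearest at 6.40 (0.902), C+Fc-GLP-1 after PH replicate 1 for Cyp1a2, at 3.76 with the nearest at 5.11 (0.875), and MCD before PH replicate 2 for Slc1a2, at 2.87 with the nearest at 3.94 (0.939). No reason for these values was tested.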

How the results depend on the processing

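All 9 called changes kept their direction under every alternative, while 53 of the 117 that were not called changed sign under at least 1, among them Cyp2e1 for the diet before PH, which was 0.00675 with the authors' values. The calls of Rhbg for the diet before PH and of Oat for the diet after PH, with and without drug, held throughout. For the diet before PH the authors' values and normexp with quantile normalization called Slc1a2 in place of Rnf43. Counts of called members moved as follows. With normexp and quantile normalization 1 member was called for time in C and 0 for time in MCD. With median centring, with only the groups compared and with the replicate block 1 was called in the difference of diet effects by drug before PH. The block also called 1 for time in C, and it changed no other count by as much. With the authors' values, without the filter and with the mean over probes 1 was called for the diet under drug after PH. Without the filter 1 was called for time in M+Fc-GLP-1, and with the mean over probes 1 for time in C. With array weights 2 were called for drug on the MCD diet before PH and 2 for the diet after PH, and 1 each in the difference by drug and for time in M+Fc-GLP-1. Leaving out an array gave 1 to 4 called members for the diet before PH, 0 to 2 for drug on the MCD diet before PH, 0 to 2 for the difference by drug, 1 to 3 for the diet after PH, 1 to 2 for the diet under drug after PH, 0 to 1 for time in C, 1 to 3 for time in MCD, 0 to 3 for time in M+Fc-GLP-1 and 0 to 0 elsewhere. Median centring shifted the median of all genes by 0.34 for the diet before PH, by -0.62 for its difference by drug, by -0.32 for drug on the MCD diet before PH and by -0.27 to 0.29 in 8 others. Without the filter the shift was -0.23, 0.37 and 0.32 in these 3, with a percentile over bright probes it was -0.13 to 0.16 in 4 comparisons, and with the authors' values -0.12 in 2. Arrays of the same replicate number in different groups had a mean correlation of their deviations of 0.017, against -0.0053 for different numbers. Same-numbered pairs went down to -0.22. Of 32 arrays, 17 correlated best with one of their own number, where 8 would if numbers were unrelated. These pairs join any groups, also of different diets and drugs. They therefore cannot decide whether arrays before and after PH within a group came from the same mice. The numbers were not taken to pair the arrays, because no label says that they mark the same mouse. Genes with dim probes, such as Axin2, have no level here.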

Other observations

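The genes whose levels were most like that of Glul over the 32 arrays were Kcnk10, Syt1 and Chac2, with correlations of 0.79, 0.78 and 0.77. Over the 31 arrays without C after PH replicate 1 these were 0.73, 0.70 and 0.72. For Cyp2e1 the most alike with a gene name were Olfr373 and Zfx, with correlations of 0.80 and 0.76 over 32 arrays and of 0.45 and 0.25 over 31. Over 31 arrays the most alike were Zfp956 and C3, the central complement protein of blood, at 0.77 and 0.76. The arrays share groups and slides, the genes were picked for the highest values among all tested, and no p is given.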
